A study of Homo sapiens with 6 samples.

Results

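The genes described here encode the machinery that cuts nascent RNA at gene ends and stops RNA polymerase II (Pol II): the cleavage factors, the Integrator complex, and termination and elongation factors. They were chosen by name from a list of 59 symbols, which stand for 56 genes because 3 Integrator subunits are listed under both an older and a current symbol, and all 56 were found among the 20115 genes of the table. The older symbols are used in the files and below: CPSF3L is INTS11, ASUN is INTS13 and VWA9 is INTS14. Of the 2014 readthrough regions measured, 10 carry the name of one of these genes alone. A further 4 carry a member's name merged with that of a microRNA gene and are counted apart.

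The RNA came from MDA-MB-231, an established line of a human triple-negative breast cancer, in 2 groups of 3 libraries. Control libraries carry no further description of a hairpin or of doxycycline in the labels. Knockdown libraries came from cells with lentivirus-delivered inducible hairpins against UBE3D, switched on by doxycycline. UBE3D encodes a HECT-type ubiquitin ligase, and the series title concerns CPSF73, the product of CPSF3. The labels mark every sample as pooled and name no separate cultures, so the spread behind each p-value is that of 3 libraries a group and may be technical.

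At most gene ends the CPSF complex reads the poly(A) signal AAUAAA, the CstF complex reads a U- or GU-rich stretch past the cut, and CPSF73 makes the cut. An exonuclease then enters at the new RNA end and chases Pol II until it falls off. Integrator has a cutting subunit of the same family and acts at small nuclear RNA genes and near promoters. When cutting or release fails, transcription continues past the gene end and gives readthrough RNA, also called DoG (downstream of gene) RNA.

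For each gene or region there is a normalized count averaged over the libraries, a log2 fold change (knockdown over control) with its standard error (SE), and an adjusted p-value, all from the authors' deposited table of its kind. Values per library were not analysed here, so depth is unknown, no value per replicate can be given and the SE is the measure of error. The fold changes are shrunken toward 0, and 95% intervals below were computed from them and their SE. A gene is called higher or lower at an adjusted p under 0.05. Where a Wald test on the deposited change and SE is named below, it gives each gene compared a larger p than the deposited one. A call lost under it is thus partly a product of the shrinkage and is not independent evidence against the call. UBE3D itself (chromosome 6, 82892398 to 83065841, GRCh38) had a log2 fold change of -0.80 with an SE of 0.37 (adjusted p = 0.00632) at a mean normalized count of 36.7 in the authors' deposited table. Its 95% interval was wide, from -1.52 to -0.08. In bulk RNA, fewer cells with UBE3D RNA and less of it per cell cannot be told apart, and the same holds for every gene below. For the line's identity, the hormone receptor genes ESR1 and PGR stood at 3.43 and 3.65 mean normalized counts per kb of transcript and the mesenchymal genes VIM, CD44, AXL and CAV1 at 1516 to 4194, computed from the authors' deposited table. The luminal genes FOXA1, CDH1 and GATA3 stood at 3.40, 15.3 and 30.2 per kb, while EPCAM stood at 221.8. ERBB2 stood at 166.7 per kb, and the blood and endothelial genes PTPRC, PECAM1 and CD3E at 8.11, 7.48 and 14.8 per kb.

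In these shrunken values no member's RNA changed 2-fold or more. Of the 56 genes, 4 were higher, 3 were lower and 49 did not pass, per the authors' deposited table. The 7 calls are 12.5% of the members, and 12.5% of all 20115 genes were called (4.62% higher and 7.93% lower). Among the 8200 genes with a mean inside the members' range, from 129.1 to 1935 normalized counts, 20.0% were called (7.78% higher and 12.3% lower). The members' share therefore equals that of the whole table and lies below that of genes of like abundance, which was not tested. The median log2 fold change was 0.00 over the members, with 28 above 0 and 28 below, and -0.03 over all genes. None of the 56 is among the 393 genes that the authors' deposited table marks, all past the threshold with a change of 2-fold or more, and the range ran from -0.65 (LEO1) to 0.52 (PCF11) in the authors' deposited table. For 53 of the 56 genes the 95% interval lay inside a 1.5-fold change either way, and the exceptions were PCF11, RBBP6 and LEO1. The same holds for 81.4% of the 8200 genes of like abundance. Since the deposited changes are shrunken, these intervals can understate the true range.

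**Figure D1:**
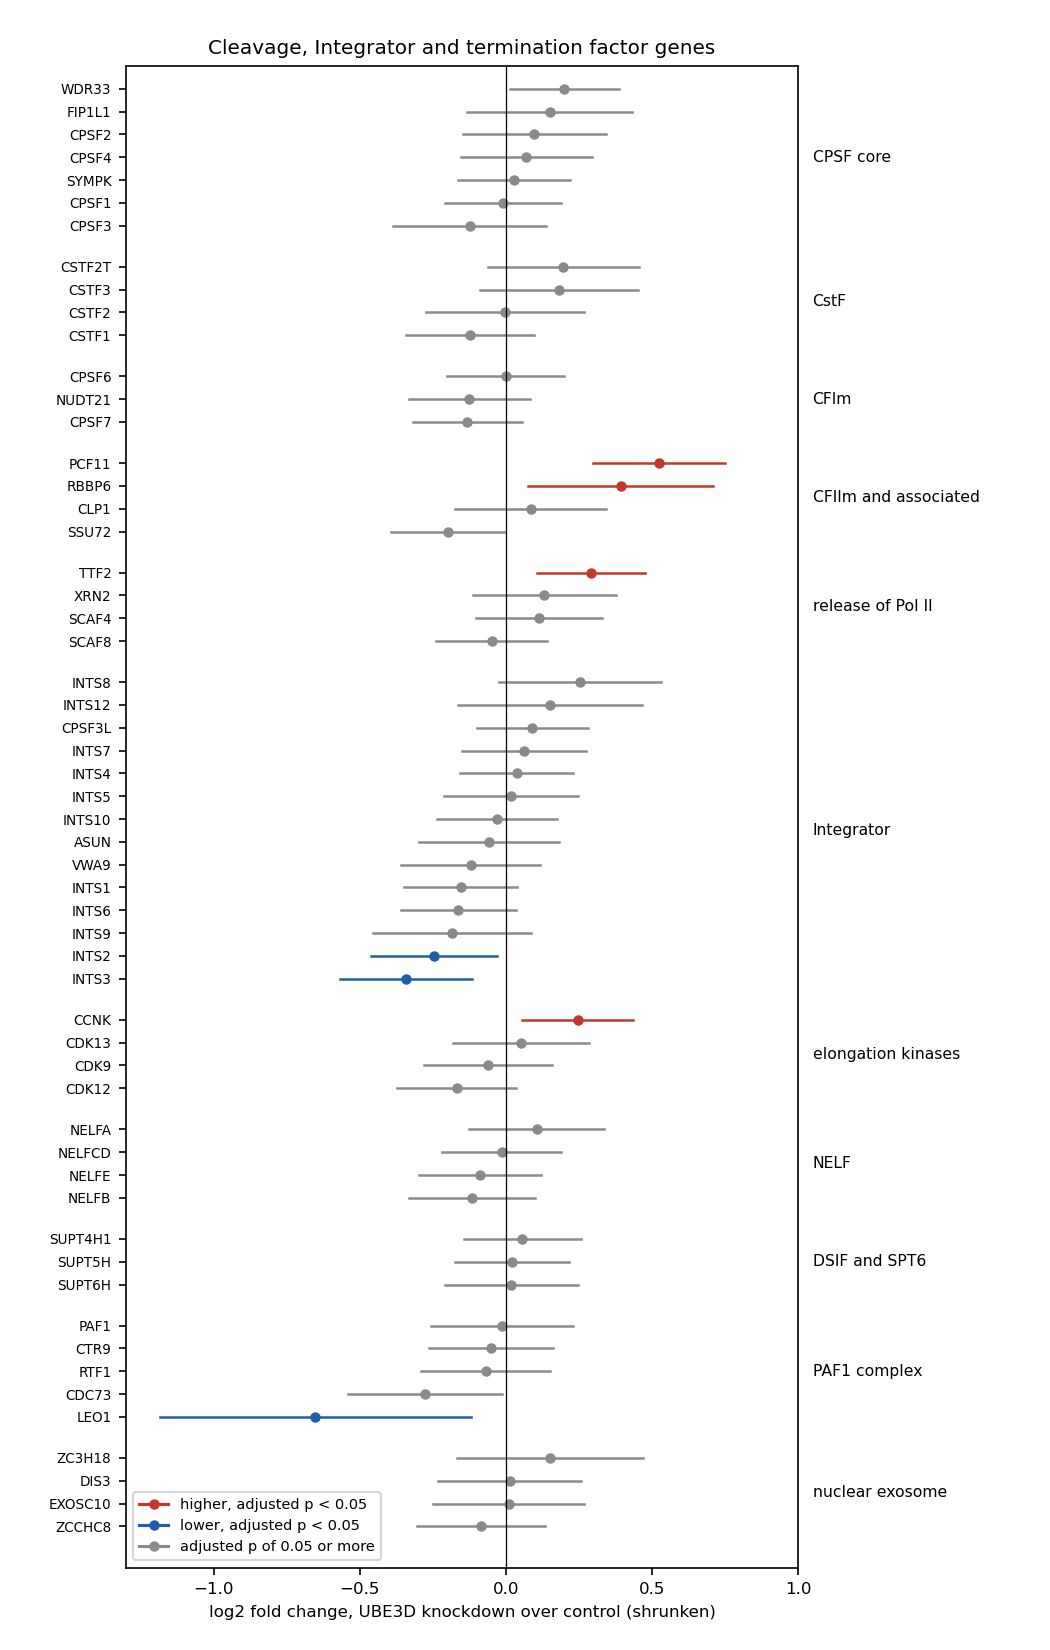
Log2 fold change (horizontal axis, knockdown over control, shrunken) of the 56 genes by role, with 95% intervals as lines. The 4 genes called higher are red, the 3 called lower are blue, and the other 49, in grey, lie between -0.28 and 0.25.

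Within the cleavage complex CPSF, none of 7 genes passed. CPSF3, which encodes the endonuclease itself, had a log2 fold change of -0.12 with an SE of 0.13 (adjusted p = 0.464, 95% interval -0.39 to 0.14) in the authors' deposited table. WDR33, which with CPSF4 contacts the AAUAAA signal, had the lowest p of the group and a log2 fold change of 0.20 with an SE of 0.09 (adjusted p = 0.0846) in the authors' deposited table. The other genes were the scaffold CPSF1 (-0.01), the non-cutting partner CPSF2 (0.10), CPSF4 (0.07), FIP1L1 (0.15), which recruits the poly(A) polymerase, and the scaffold SYMPK (0.03), as log2 fold changes in the authors' deposited table.

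Neither CstF nor CFIm, which binds UGUA ahead of the cut, had a member past the threshold. CSTF2T, a paralog of the RNA-binding subunit CSTF2, had a log2 fold change of 0.20 with an SE of 0.13 (adjusted p = 0.2) and CSTF2 one of 0.00 (SE 0.14), per the authors' deposited table. The bridging subunit CSTF3 stood at 0.18 and CSTF1 at -0.12 in the authors' deposited table. All 3 CFIm genes lay below 0, with CPSF7 at -0.13 (SE 0.09, adjusted p = 0.311), the RNA-binding subunit NUDT21 at -0.12 and CPSF6 at 0.00 when rounded, per the authors' deposited table.

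Of the 4 genes of CFIIm and its associates, 2 rose. PCF11 (chr11:83156988-83187451), which binds the Pol II tail and serves both cleavage and termination, rose 1.44-fold (log2 fold change 0.52, SE 0.12, adjusted p = 7.18e-06) at a mean normalized count of 657.6 in the authors' deposited table. RBBP6 (chr16:24537693-24572863), a RING-domain protein that activates cleavage, rose 1.31-fold (0.39, SE 0.16, adjusted p = 0.0121) in the authors' deposited table. The SE of RBBP6 was larger than that of 95.6% of the 1100 genes with a mean within 1.2-fold of its own, and its call was lost with a Wald test on the deposited change and SE. CLP1, the RNA kinase that pairs with PCF11 in CFIIm, had a log2 fold change of 0.09 with an SE of 0.13 (adjusted p = 0.637) in the authors' deposited table. SSU72, a phosphatase of the Pol II tail, had one of -0.20 (SE 0.10, adjusted p = 0.107).

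Of the genes that free Pol II from the template or guard against early ends, TTF2 rose. TTF2 (chr1:117060303-117107453), an ATP-driven release factor, had a log2 fold change of 0.29 with an SE of 0.09 (adjusted p = 0.00397), 1.22-fold, in the authors' deposited table. XRN2, the exonuclease that chases Pol II, had one of 0.13 (SE 0.13, adjusted p = 0.413) at a mean normalized count of 1706. SCAF4 (0.11, SE 0.11, adjusted p = 0.451) and SCAF8 (-0.05, SE 0.10), which bind the Pol II tail and hold back early polyadenylation, did not pass in the authors' deposited table.

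Of the 14 Integrator subunits among the members, 2 were lower and none higher. INTS3 (chr1:153728067-153774808), also a subunit of the SOSS complex that binds single-stranded DNA, had a log2 fold change of -0.34 with an SE of 0.12 (adjusted p = 0.00432), 1.27-fold lower, in the authors' deposited table. INTS2 (chr17:61865367-61928016) was lower by a margin close to the threshold (-0.25, SE 0.11, adjusted p = 0.0489) in the authors' deposited table. Both calls were lost with a Wald test on the deposited change and SE. The cutting subunit CPSF3L had a log2 fold change of 0.09 (SE 0.10), its non-cutting partner INTS9 one of -0.19 (SE 0.14), and the scaffold INTS4, which holds both, one of 0.04 in the authors' deposited table. INTS6 and INTS8, which bring in the phosphatase PP2A, stood at -0.16 (SE 0.10) and 0.25 (SE 0.14, adjusted p = 0.0962). The remaining 7 were INTS1, INTS5, INTS7, INTS10, INTS12, ASUN and VWA9, and ranged from -0.16 (INTS1) to 0.15 (INTS12) in the authors' deposited table.

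Among the elongation kinases CCNK (chr14:99481169-99535044) rose 1.19-fold (log2 fold change 0.25, SE 0.10, adjusted p = 0.0267) in the authors' deposited table, and this call was lost with a Wald test on the deposited change and SE. CCNK encodes the cyclin shared by CDK12 and CDK13, kinases of the Pol II tail, which stood at -0.17 (SE 0.10) and 0.05 (SE 0.12). CDK9, the kinase of the pause-release factor P-TEFb, had a log2 fold change of -0.06 with an SE of 0.11 (adjusted p = 0.722) in the authors' deposited table. The pausing factors did not pass. The 4 NELF genes ranged from -0.12 (NELFB, SE 0.11, adjusted p = 0.446) to 0.11 (NELFA), with NELFE at -0.09 and NELFCD at -0.01, in the authors' deposited table. SUPT4H1 (0.06, SE 0.10, adjusted p = 0.734) and SUPT5H (0.02), which form DSIF, and the histone chaperone SUPT6H (0.02) spanned the narrowest range of the role groups, per the authors' deposited table.

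The PAF1 complex, which travels with elongating Pol II, held the lowest value of all 56 genes. LEO1 (chr15:51938025-51971806) was 1.57-fold lower (log2 fold change -0.65, SE 0.27, adjusted p = 0.00575) at a mean normalized count of 282.4 in the authors' deposited table. Its SE was larger than that of 99.6% of the 1354 genes within 1.2-fold of its mean, whose median SE was 0.12, and its 95% interval ran from -1.18 to -0.12. The call was lost with a Wald test on the deposited change and SE. CDC73 missed the threshold narrowly (-0.28, SE 0.13, adjusted p = 0.0527), and CTR9 (-0.05), PAF1 (-0.01) and RTF1 (-0.07) stood nearer 0 in the authors' deposited table. All 5 members of this role group thus lay below 0, and 1 passed. Of all genes, 43.2% lay above 0.

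The nuclear exosome degrades readthrough and promoter RNA from its 3' end. Of its nucleases EXOSC10 had a log2 fold change of 0.01 (SE 0.13) and DIS3 one of 0.01 (SE 0.13) in the authors' deposited table. ZCCHC8, the scaffold of the NEXT adaptor, stood at -0.08 (SE 0.11), and ZC3H18, which ties the cap complex to NEXT, at 0.15 (SE 0.16, adjusted p = 0.412). None of the 4 passed.

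**Figure D2:**
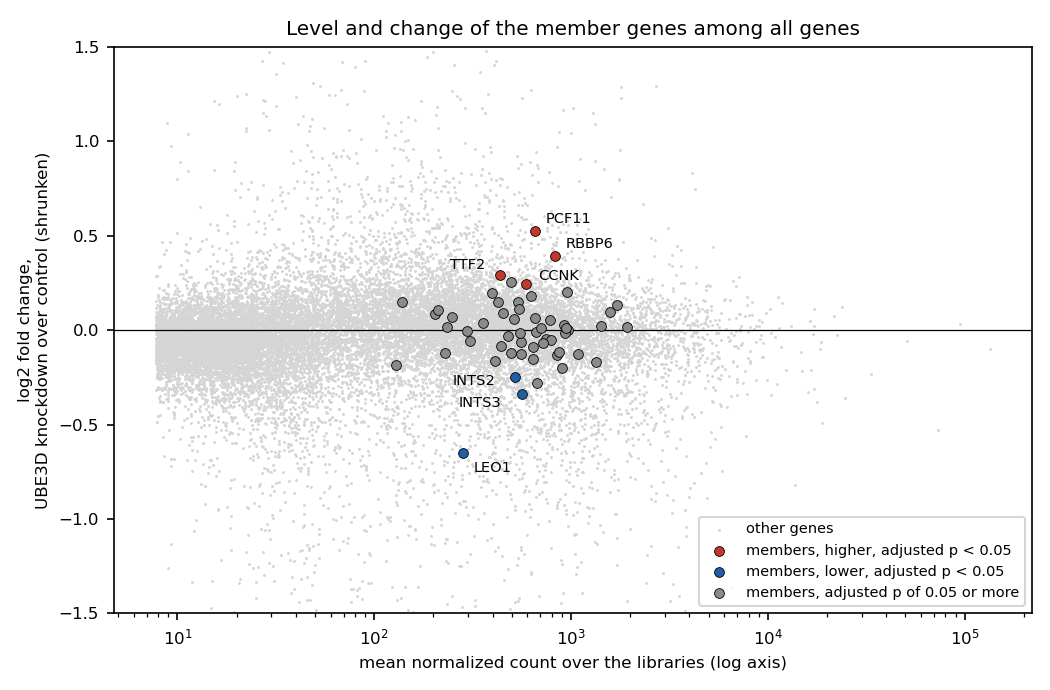
Log2 fold change (vertical axis) against the mean normalized count over the libraries (horizontal, log axis), with the 56 genes as large points (red higher, blue lower, grey not past the threshold) over all other genes in pale grey. On this plot 127 genes beyond 1.5 log2 units either way are not drawn, and the members sit between means of 129.1 and 1935, and the 7 called genes are named.

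All 56 genes were well covered, with means above those of 55.2% to 96% of the genes in the table. To compare levels between genes, mean normalized counts were divided by the length of the principal transcript in GENCODE 29. On this per-kb scale of levels, SSU72 was the highest of the 56 at 697.9 and TTF2 the lowest at 45.9, computed from the authors' deposited table. Within the CPSF complex levels spanned 2.42-fold, from WDR33 (100.6 per kb) to FIP1L1 (243.7). Integrator genes spanned 4.15-fold, from INTS9 at 50.7 per kb to CPSF3L at 210.4. Those are the non-cutting and the cutting partner, and in CPSF the same roles stood closer, at 120.9 per kb for CPSF2 and 238.5 for CPSF3. NELFA (96.5 per kb) was the lowest NELF gene, against 404.5 for NELFCD, 405.9 for NELFE and 459.1 for NELFB. These levels depend on which transcript length is used, here 1290 bases for SSU72, 1887 for NELFB, 2345 for CPSF3 and 13035 for CPSF2. The NELFB transcript ends 618 bases before the annotated gene end, and the longest annotated 3' untranslated region of SSU72 has 3687 bases. With longer transcripts both levels would be lower, so the rank of SSU72 and the order within NELF may not hold. By mean normalized count, without length, the order in CPSF reverses, with CPSF2 at 1576 and CPSF3 at 559.3. Across the 56 genes the fold change had a Spearman rho of -0.05 with the mean count and 0.10 with the length of the gene, as a description over genes that share the same libraries.

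In 6 pairs of related genes the log2 fold changes were set against each other, with the SE of the difference taken as the root of the summed squared SE. CDK12 minus CDK13 was -0.22 (95% interval -0.53 to 0.09), CSTF2 minus CSTF2T was -0.20 (-0.57 to 0.17) and SCAF4 minus SCAF8 was 0.16 (-0.12 to 0.45). The cutting subunits CPSF3 and CPSF3L differed by -0.21 (-0.54 to 0.11), their non-cutting partners CPSF2 and INTS9 by 0.28 (-0.08 to 0.65), and CPSF6 and CPSF7 by 0.13 (-0.14 to 0.40). Every interval included 0 and none was narrow enough to show that a pair moved alike.

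A readthrough region under the gene's name alone was measured for 10 of the 56 genes. Of these regions 2 were lower and none higher, against 28.8% of all 2014 regions called (16.1% lower and 12.7% higher) in the authors' deposited table. The share of the 10 lies near that of all regions. Their median log2 fold change was -0.06, against -0.01 over all regions.

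Of the 56 principal transcripts, 38 (67.9%) hold AATAAA in the last 40 bases, 4 (7.14%) hold ATTAAA alone and 14 (25%) hold neither. Among all 16461 genes of the table with a coding transcript these shares are 60.6%, 13.8% and 25.6%. Some transcripts with neither end before the annotated gene end, by 618 bases in NELFB, 22604 in CCNK and 29761 in CDK12. Some with AATAAA do too, such as CTR9 by 21882 bases. Only these hexamers were searched, so a transcript with neither may still have a signal elsewhere or of another form. Of the 10 genes with a region 6 hold AATAAA and 4 hold neither, against 55.3% and 29.3% of the 1621 genes with a region of their name. The last bases of the principal transcript of 7 of the 10 are shown to set the signal that CPSF reads beside the readthrough values, 5' to 3' in transcript sense (GENCODE 29, GRCh38), with the hexamer in capitals.
CSTF1, chr20:56406340-56406369, plus strand: gaAATAAActttatatacaatgataagcta
PAF1, chr19:39385852-39385881, minus strand: tttgctgttAATAAAgtcaacttctcttta
FIP1L1, chr4:53459639-53459668, plus strand: ttcaaaAATAAAaagacagcaatgacttta
SCAF4, chr21:31671033-31671062, minus strand: gtttttAATAAActctattttcgtaacaaa
VWA9, chr15:65578782-65578811, minus strand: ttaatgaaAATAAAatatttgattttctag
NELFCD, chr20:58995104-58995133, plus strand: ttaaaaagcctttctgctgggttggattaa
CDK9, chr9:127790758-127790787, plus strand: caacacaaaaggccagtaaaagtaagaaaa
The FIP1L1 transcript ends 1193 bases before the annotated gene end, and where its region begins is not known here. The first 5 shown carry AATAAA, and the last 2 hold neither hexamer in the last 40 bases. CSTF1 and NELFCD, the 2 genes with a lower region, are thus on different sides of this division.

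The region past NELFCD was the most changed of the 10, with a log2 fold change of -0.72 with an SE of 0.19 (adjusted p = 9.63e-05), 1.64-fold lower, at a mean normalized count of 2259 in the authors' deposited table. NELFCD itself did not pass (-0.01, SE 0.10, adjusted p = 0.946). The difference between region and gene was -0.70 (SE 0.22, adjusted p = 0.021 over 1798 regions with a named host), and 8.68% of those regions differed from their host at this threshold (4.62% lower and 4.06% higher). On the opposite strand, 52 bases past the end of NELFCD, lies the end of CTSZ, the gene of the protease cathepsin Z (chromosome 20, 58995185 to 59007247). CTSZ fell in the same table of genes, with a log2 fold change of -0.61 with an SE of 0.19 (adjusted p = 0.000894) at a mean normalized count of 2070 in the authors' deposited table. Whether RNA of CTSZ is part of the NELFCD region was not tested, since the sources used here do not give the strand setting of the counting.

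The region past CSTF1 was the other one lower, with a log2 fold change of -0.51 with an SE of 0.22 (adjusted p = 0.00912), 1.42-fold, at a mean normalized count of 189.5 in the authors' deposited table. This call was lost with a Wald test on the deposited change and SE. CSTF1 itself had a log2 fold change of -0.12 with an SE of 0.11 (adjusted p = 0.421), and the difference of -0.38 between region and gene (95% interval -0.86 to 0.09, adjusted p = 0.423) did not pass. The next gene, CASS4, starts 5743 bases further on the same strand and had a log2 fold change of 0.01 (SE 0.29) at a mean normalized count of 30.2 in the authors' deposited table.

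The other 8 regions did not pass. PAF1 came closest, with a log2 fold change of -0.25 with an SE of 0.12 (adjusted p = 0.0569), beside -0.01 for the gene (SE 0.12, adjusted p = 0.955), in the authors' deposited table. The regions past WDR33 (-0.15, SE 0.16), INTS8 (-0.09, SE 0.14), CCNK (-0.03, SE 0.12) and SCAF4 (-0.01, SE 0.17) lay below 0 while their genes lay above it, per the authors' deposited table. For CDK9 and VWA9 the order was the opposite, with 0.21 (SE 0.12) and 0.09 (SE 0.13) for the regions and -0.06 and -0.12 (SE 0.12, adjusted p = 0.456) for the genes in the authors' deposited table. FIP1L1 had 0.22 (SE 0.15) for the region and 0.15 (SE 0.14, adjusted p = 0.381) for the gene in the authors' deposited table. Apart from PAF1, the adjusted p-values of these regions ran from 0.125 (CDK9) to 0.959 (SCAF4) in the authors' deposited table. Measured genes on the opposite strand overlap the ends of FIP1L1 (LNX1), INTS8 (CCNE2) and CCNK (CCDC85C). Others end 142 bases past PAF1 (SAMD4B), 401 past VWA9 (HACD3) and 2102 past SCAF4 (SOD1). Whether RNA of these neighbours is part of the regions was not tested. In all, 7 of the 10 regions lay below their gene, with a median difference of -0.26, and of all 1798 regions compared 1021 did, with a median of -0.05. Among the 10, NELFCD was the 1 whose difference passed. CCNK, a member called higher, had a difference of -0.27 (95% interval -0.57 to 0.02, adjusted p = 0.335). The annotated CCNK gene extends 22604 bases past the end of its principal transcript, so where its region begins is not known here. TTF2, also called higher, has a region merged with MIR942, which was higher (0.41, SE 0.17, adjusted p = 0.0127) in the authors' deposited table and was named after its value was seen.

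**Figure D3:**
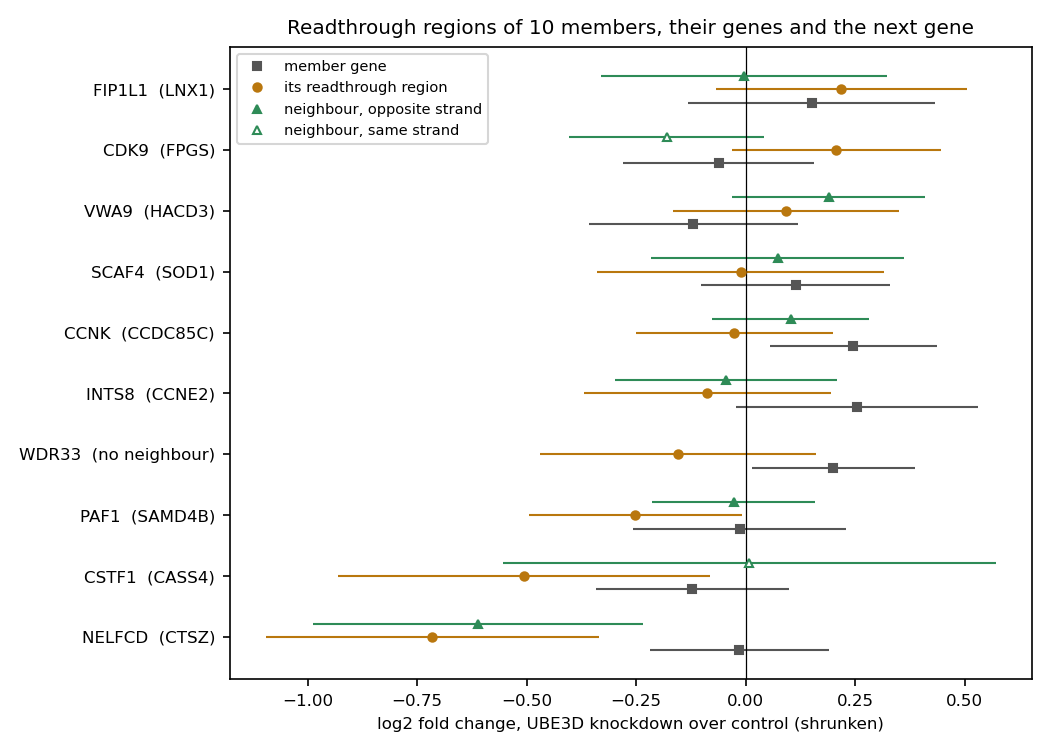
Log2 fold change (horizontal axis, knockdown over control, shrunken) of 10 member genes (squares), their readthrough regions (circles) and the next measured gene within 10 kb past the end (triangles, its name in brackets; open where it lies on the same strand), with 95% intervals as lines. The region of NELFCD (-0.72) lies beside its opposite-strand neighbour CTSZ (-0.61) and below NELFCD (-0.01).

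Among other genes of the same pathways single changes were larger than any of the members'. Of 94 such genes, from 7 groups, 4 were higher and 9 lower in the authors' deposited table, against 4.62% and 7.93% of all genes. Of 22 genes of P-TEFb, its regulators and related transcription kinases, 5 were lower and none higher. Lower calls made up 7.93% of all genes and 12.3% of genes within the members' range of means. AFF4, HEXIM2 and ELL3 of this group lie outside that range. AFF4, the scaffold of the super elongation complex that carries P-TEFb to paused Pol II, fell by 0.86 in log2 units with an SE of 0.16 (adjusted p = 8.65e-08) at a mean normalized count of 2705 in the authors' deposited table. Its partners ELL2, an elongation factor, and EAF1, which binds ELL proteins, fell by 0.68 (SE 0.11, adjusted p = 6.63e-09) and by 0.55 (SE 0.13, adjusted p = 2.05e-05) in the authors' deposited table. Among the members LEO1 alone fell by as much as EAF1. CCNL2, a cyclin of CDK11, had -0.23 (SE 0.10, adjusted p = 0.0466) in the authors' deposited table. CCNT1, the main cyclin partner of CDK9, had -0.25 (SE 0.11, adjusted p = 0.0492), and was named after its value was seen. Both of these calls were lost with a Wald test on the deposited change and SE.

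Of 10 Integrator partners 2 were lower and none higher, against 7.93% lower and 4.62% higher of all genes. Both lower genes belong with INTS3 to the SOSS complex. NABP1, its subunit that binds single-stranded DNA, had a log2 fold change of -0.42 with an SE of 0.13 (adjusted p = 0.00122), and INIP one of -0.40 (SE 0.18, adjusted p = 0.0172) in the authors' deposited table. INIP lost its call with a Wald test on the deposited change and SE, and NABP1 kept it. NABP2, the alternative to NABP1, stood at -0.16 (SE 0.13, adjusted p = 0.324), and was named after its value was seen. Going the other way, TCEA1, which encodes the factor TFIIS that restarts arrested Pol II, rose by 0.87 (SE 0.17, adjusted p = 2.55e-07) in the authors' deposited table. Of 19 further exosome, NEXT, PAXT and cap complex genes the core subunit gene EXOSC1 rose by 0.45 (SE 0.18, adjusted p = 0.00714) and the cytoplasmic nuclease gene DIS3L by 0.38 (SE 0.19, adjusted p = 0.0311) in the authors' deposited table. The Pol II tail phosphatase gene CTDSPL rose by 0.30 (SE 0.13, adjusted p = 0.0278), while the tail reader RPRD1B (-0.25, SE 0.09, adjusted p = 0.0116) and the Pol II subunit gene POLR2C (-0.27, SE 0.12, adjusted p = 0.0412) both fell in the authors' deposited table. With a Wald test on the deposited change and SE, TCEA1 kept its call and EXOSC1, DIS3L, CTDSPL, RPRD1B and POLR2C lost theirs. None of the 7 genes of the restrictor complex and the PNUTS-PP1 phosphatase passed, with values from -0.24 to 0.20, and the other 11 Pol II subunit genes did not pass.

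**Figure D4:**
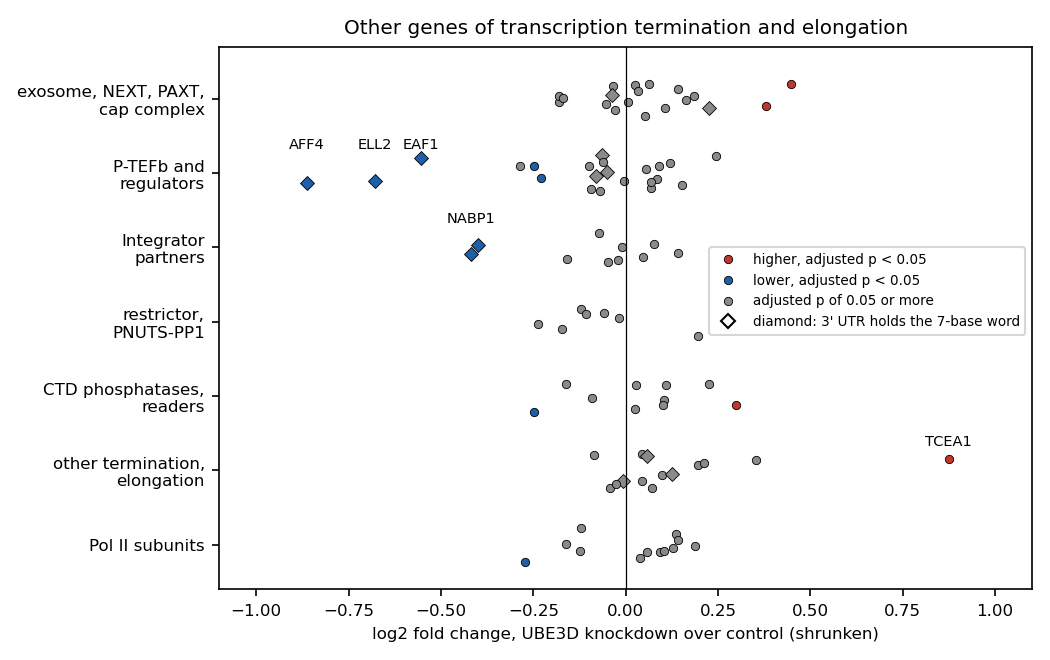
Log2 fold change (horizontal axis, knockdown over control, shrunken) of 94 other genes of transcription termination and elongation in 7 groups, 1 mark a gene (red higher, blue lower, grey not past the threshold, diamonds for a 3' UTR with the 7-base word GATTGAA), with vertical scatter for display only. The lowest values belong to AFF4, ELL2 and EAF1 in the group of P-TEFb and its regulators, and the highest to TCEA1.

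Many genes that fell in these data hold the 7-base word GATTGAA in the 3' untranslated region (UTR). The word was picked from these same falls, so its counts here are no independent evidence. Among the members, 6 of 56 hold it, and 1 of the 6 was lower (LEO1), against 2 of the 50 without it. Among the other pathway genes, 13 of the 90 whose 3' UTR was found by symbol and searched hold it. Of the 13, 5 were lower, against 4 of the 77 without it. Over the 9127 genes with a searched 3' UTR and a mean of 100 or more, 30.8% of the 1031 with the word were lower and 10.4% of the rest. The word is shown in capitals within its surroundings for the 6 lower genes that hold it and for CDC73, the member just outside the threshold (transcript sense, GENCODE 29, GRCh38).
LEO1, chr15:51938072-51938094, minus strand: gttattttGATTGAAatgaatcg
CDC73, chr1:193251251-193251273, plus strand: ttcaatttGATTGAActgttcag
AFF4, chr5:132880788-132880810, minus strand: tatgataaGATTGAAattccagt
ELL2, chr5:95885289-95885311, minus strand: aatctgaaGATTGAAcaaggctg
EAF1, chr3:15442015-15442037, plus strand: aaagttgtGATTGAAgaaactta
NABP1, chr2:191696018-191696040, plus strand: ccacagaaGATTGAAaagtgctt
INIP, chr9:112686178-112686200, minus strand: tttaatagGATTGAAatgatatt
The 5 other pathway genes listed are AFF4, ELL2 and EAF1 of the super elongation complex and NABP1 and INIP of SOSS, while INTS3 and INTS2 do not hold the word. Of the members that hold it, CSTF1, CPSF6, CPSF7 and CDK13 had log2 fold changes from -0.13 to 0.05 in the authors' deposited table and did not pass. The 3' UTRs differ widely in length, from 131 bases in LEO1 to 10891 in NABP1, and longer ones have more room for any word. The sources used here give no hairpin sequence, and any part of the word in these falls was not tested.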

How the data were processed

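Ribosome-depleted total RNA of 3 control and 3 knockdown libraries gave stranded, randomly primed cDNA, read as 75 bp pairs, per the labels' protocols. The tools cutadapt 1.8.1, STAR 2.5.2b and DESeq2 and the build hg38 are listed in the submitters' processing notes, which give them no order or role. The sources used here do not give the counting tool, its strand setting, the annotation or how readthrough regions were called.

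Per the file headers, the authors' deposited tables hold, in each row, the mean normalized count (a signal), the fold change as log2 with its SE in log2 units, and the p-value before and after adjustment. A Benjamini-Hochberg adjustment computed over each table gave the deposited adjusted values. In all 20112 genes compared, change divided by SE is smaller than the quantile that belongs to the deposited p-value, so the changes are taken as shrunken. No level is set against another across the gene and region tables, whose scaling may differ. The files hold 0 columns per library, so depth and its precision are unknown.

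Region and gene were compared by a normal test on the difference of their deposited, shrunken changes, adjusted over 1798 regions. Its SE took both estimates as independent, though they come from the same libraries, and the shrinkage may differ between regions and genes. Positions and sequences come from GENCODE 29 (GRCh38), matched by symbol for 18472 of 20115 genes. The principal coding transcript (best APPRIS rank, then longest) gave lengths and 3' ends, and the longest basic 3' UTR of at least 50 bases gave word counts. No sequence from chromosome 8, which holds 4 members, is printed. The symbol MPP6 was left out of the other pathway genes because it also names a membrane scaffold gene. Values were computed in Python 3.11.15 with scipy 1.17.1, pandas 2.3.3 and numpy 2.4.6.

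Members and lists were chosen with earlier results of these data known. All members are named. SE and adjusted p are given for those past the threshold, for the lowest p of a role group without one and for genes with a region, and of the other pathway genes for up to 4 called per group. Alternatives were other thresholds, Holm adjustment, a minimum mean of 100, Wald tests with and without a shift to a median of 0 and, for region against gene, a correlation of 0.5.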

Additional observations from a re-analysis of the deposited data

How the results depend on the processing

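No paired analysis was possible because the tables hold no value per library, and for the same reason no replicate could be left out. PCF11 and the NELFCD region kept their calls under all 6 alternatives tried for single genes, and TTF2 under all but the Holm adjustment. Of these alternatives, the looser threshold of 0.1 cannot remove a call, and the minimum mean of 100 removed no member's call. The number of members higher, 4 in the report, was 2 at a threshold of 0.01, 1 after Holm adjustment, and 2 with a Wald test on the deposited change and SE, shifted or not. At a threshold of 0.1 it was 6, with INTS8 and WDR33 added. The number lower, 3, was 2 at 0.01, 0 after Holm adjustment and 0 with either Wald test. It was 4 at 0.1 and 4 with a minimum mean of 100, with CDC73 added each time. The unshifted Wald test gives each gene compared a larger p than the deposited one, since the changes are shrunken. Of the member regions 1 in place of 2 was lower after Holm adjustment and with either Wald test, and that was NELFCD. At a threshold of 0.1 there were 3, with PAF1 added. Other pathway genes higher, 4, numbered 2 at 0.01, 7 at 0.1, 6 with a minimum mean of 100, 1 after Holm adjustment and 1 with either Wald test. Those lower, 9, numbered 4 at 0.01, 3 after Holm adjustment and 4 with either Wald test, AFF4, ELL2 and EAF1 among them each time. The difference between the NELFCD region and its gene, with an adjusted p of 0.021 in the normal test, does not pass 0.01. In the same test its adjusted p was 0.00039 with a correlation of 0.5. It was 0.0175 with each table shifted to a median of 0 and 0.0179 with a minimum mean of 100. Each of these settings lowered it, and a positive correlation can only make the SE smaller. They therefore do not show that the call is robust. The alternatives for single genes kept the deposited change or shifted it only to a table median of 0. They could therefore not reverse the direction of a call, and the directions were not tested by them.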

Other observations

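Readthrough regions with merged names hold 4 further members, outside the rule that chose the 10 regions, and were named after their values were seen. MIR942&TTF2, at 0.41 in the authors' deposited table, was the highest. MIR943&NELFA was lower (-0.26, SE 0.12, adjusted p = 0.0443) while the NELFA gene stood at 0.11 (SE 0.12), per the authors' deposited table. CDC73&MIR1278 (-0.20, SE 0.14, adjusted p = 0.189) and MIR1236&NELFE (-0.12, SE 0.12, adjusted p = 0.389) did not pass in the authors' deposited table.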
